A study of Mus musculus with 7 samples.

Results

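The genes of the inhibin, activin and follistatin system were examined for estrogen receptor β (ERβ) binding in mouse ovary. The 8 genes were the subunit genes Inha, Inhba and Inhbb, the binding protein genes Fst and Fstl3, and the receptor genes Acvr1b, Acvr2a and Acvr2b, chosen by name from 21755 protein-coding genes. Each locus was the GENCODE gene body in GRCm38 (mm10) with 50 kb on each side, and the 8 loci together spanned 1.00 Mb. The data were ChIP-seq, in which cross-linked chromatin held by an antibody is sequenced and compared with input, chromatin sequenced without the antibody step. The ERβ antibody PPZ0506 was used on fresh ovaries of female C57BL/6J mice with endogenous ERβ, and 3 ERβ ChIP libraries and 2 inputs were analysed. According to the methods of the study, each replicate pooled ovaries of several mice, from juveniles to adults, so the libraries average over animals, follicle stages and all ovarian cell types. The labels name no hormone treatment, and 2 ChIP samples from ovaries with deleted ERβ were not analysed here. The tracks hold no expression values, so the tissue could not be checked against marker transcripts.

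Inhibins are dimers of the α-subunit encoded by Inha with a β-subunit, βA from Inhba or βB from Inhbb, and are secreted by ovarian granulosa cells to lower follicle-stimulating hormone (FSH) release from the pituitary. Activins are dimers of β-subunits alone and raise FSH release. Activins bind the type II receptors ACVR2A or ACVR2B, which recruit the type I receptor ACVR1B and lead to phosphorylation of SMAD proteins, and follistatin (Fst) and the related protein from Fstl3 bind activins and block them. ERβ, encoded by Esr2, is the estrogen receptor of granulosa cells and binds DNA at estrogen response elements (EREs).

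ERβ sites lay at 4 of the 8 genes, and the highest ones were beside the inhibin subunit genes Inha and Inhbb. A site was a 200-bp window with more than 4 times the mean input signal in at least 2 of the 3 ChIP libraries, and neighbouring windows were merged and represented by the window with the highest mean fold. There were 11 sites, 3 at Inha, 4 at Inhbb, 1 at Fst and 3 at Acvr1b, and 0 at Inhba, Fstl3, Acvr2a and Acvr2b. Over all protein-coding genes, 27.4% had at least 1 site in a locus drawn the same way. The 8 loci held 11.0 sites per Mb, against 1.90 per Mb in the genome as a whole, where 4869 sites were found. The genome value includes sequence far from genes. Loci of protein-coding genes held 0.411 sites on average, and 3.0% of them held at least 3. Of the 11 sites, 6 had 1 of the 8 genes as the nearest coding start, with 1 start counted per gene. At 1 of these 6, the Inhbb site 35.4 kb upstream, a transcript of Ralb started nearer. The highest Inha site was nearest to the start of Stk11ip.

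The sequences of the 7 sites that exceeded 4-fold in all 3 ChIP libraries are shown on the plus strand of GRCm38, because the later values refer to them. Capitals mark EREs, searched as GGTCANNNTGACC with 10 fixed bases of which 2 may differ. The NR5A motif CAAGGTCA is also in capitals on either strand. The same holds for AGATAA, the core that GATA factors bind. The FOXO motif, given here as TGTTTAC, was searched and marked in the same way. In windows without such an ERE, copies of one ERE arm, GGTCA or its reverse complement, are in capitals too. For the site at the Inha start only the bases before the annotated start are printed.
Inha, gene start, chr1:75506981-75507076: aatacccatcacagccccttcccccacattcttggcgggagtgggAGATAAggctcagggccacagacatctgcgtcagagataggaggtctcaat
Inha, 12.2 kb downstream, chr1:75519221-75519420: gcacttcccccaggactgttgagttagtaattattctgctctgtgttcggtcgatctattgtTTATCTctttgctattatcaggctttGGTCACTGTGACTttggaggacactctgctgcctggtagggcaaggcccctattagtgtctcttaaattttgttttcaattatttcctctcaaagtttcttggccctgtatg
Inhbb, 35.6 kb downstream, chr1:119386511-119386710: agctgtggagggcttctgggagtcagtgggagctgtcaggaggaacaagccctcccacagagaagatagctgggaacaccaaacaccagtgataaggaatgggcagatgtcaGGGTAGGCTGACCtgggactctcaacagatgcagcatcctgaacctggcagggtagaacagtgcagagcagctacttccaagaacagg
Inhbb, 9.58 kb upstream, chr1:119431731-119431930: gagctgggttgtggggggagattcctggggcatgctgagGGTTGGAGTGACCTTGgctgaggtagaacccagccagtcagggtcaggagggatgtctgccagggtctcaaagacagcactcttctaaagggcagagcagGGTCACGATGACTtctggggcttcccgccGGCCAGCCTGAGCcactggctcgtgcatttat
Inhbb, 35.4 kb upstream, chr1:119457541-119457740: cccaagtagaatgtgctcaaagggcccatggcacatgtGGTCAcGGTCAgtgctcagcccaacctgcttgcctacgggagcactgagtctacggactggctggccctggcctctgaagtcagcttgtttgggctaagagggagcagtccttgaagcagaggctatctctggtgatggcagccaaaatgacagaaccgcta
Fst, intron 1, chr13:114456811-114457010: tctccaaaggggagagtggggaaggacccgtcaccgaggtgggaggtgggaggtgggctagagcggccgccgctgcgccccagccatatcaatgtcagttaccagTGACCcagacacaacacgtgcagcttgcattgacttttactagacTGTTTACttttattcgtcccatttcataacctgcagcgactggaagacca
Acvr1b, 74.1 kb downstream, chr15:101248101-101248300: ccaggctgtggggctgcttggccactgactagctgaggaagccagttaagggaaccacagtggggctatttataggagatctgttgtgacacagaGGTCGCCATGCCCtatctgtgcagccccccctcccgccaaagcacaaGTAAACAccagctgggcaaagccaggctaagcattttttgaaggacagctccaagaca

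Inha, the gene for the subunit that makes a dimer an inhibin, had 3 sites. The highest lay 12.2 kb downstream of the Inha start (plus strand, gene at chr1:75507077-75510366), between genes, where signal was 15.1, 20.1 and 19.3 in ChIP replicates 1, 2 and 3 and 0.753 and 0.540 in Inputs 1 and 2. The fold over the mean input, by which the window was chosen, was 23.3, 31.1 and 29.8, with a mean of 28.1 ± 4.17 (SD, n = 3). This site ranked 76 of the 4869 sites by mean fold. It lay 2.21 kb upstream of the start of the neighbouring gene Stk11ip, so Inha was not the nearest gene, and a site cannot be assigned to a gene from its position alone. Its sequence held an ERE with 1 mismatch, centred 5 bp from the middle of the window, and a GATA match.

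The Inha promoter itself held a second site, with its centre 3 bp downstream of the gene start. Signal there was 3.82, 5.55 and 4.98 in the ChIP libraries and 0.724 and 0.550 in the inputs, and the folds were 6.00, 8.72 and 7.82 (mean 7.51 ± 1.39, SD, n = 3). The 3 ChIP values did not overlap those of the inputs, but the window was chosen by its folds, which makes this likely beforehand. The full window held no ERE with at most 2 mismatches and no copy of GGTCA, and its only match to the searched motifs was the GATA sequence printed in capitals. A lower site 10.1 kb downstream was 4.29, 3.89 and 5.64-fold over input and passed 4-fold in 2 of 3 libraries. It contained an NR5A match, the motif of the nuclear receptors SF-1 and LRH-1.

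Inhbb, the gene for the βB-subunit of inhibin B and activin B (minus strand, chr1:119415465-119422248), had 4 sites. With 10 kb on each side of the gene it had 1 and Inha had 3. At the site 35.6 kb downstream of its start, signal was 21.3, 28.6 and 28.5 in ChIP replicates 1, 2 and 3 and 0.643 and 0.802 in the inputs. The folds of 29.5, 39.5 and 39.4 (mean 36.1 ± 5.76, SD, n = 3) were the highest of the 8 loci by their mean, and the site ranked 23 of 4869. The site 9.58 kb upstream had signal of 21.1, 21.5 and 20.7 in the ChIP libraries against 0.872 and 0.520 in the inputs. Its folds of 30.3, 30.8 and 29.7 (mean 30.3 ± 0.552, SD, n = 3) varied least between libraries among the 11 sites, and it ranked 53. Both lay between genes, and Inhbb had the nearest coding start.

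The other sites at Inhbb were lower. The site 35.4 kb upstream had signal of 7.71, 9.41 and 8.81 in the ChIP libraries against 0.867 and 1.01 in the inputs, and a mean fold of 9.22 ± 0.922 (SD, n = 3). Its nearest annotated transcript start was that of a transcript of Ralb, 20439 bp away. The site 11.0 kb upstream had folds of 6.27, 6.00 and 3.76, so ChIP replicate 3 stayed under 4-fold there, and 60.5% of its bases were soft-masked as repeats. In the plot of signal by distance, the sites at Inha and Inhbb stood as separate narrow peaks outside the gene bodies, apart from the one at the Inha start.

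**Figure D1:**
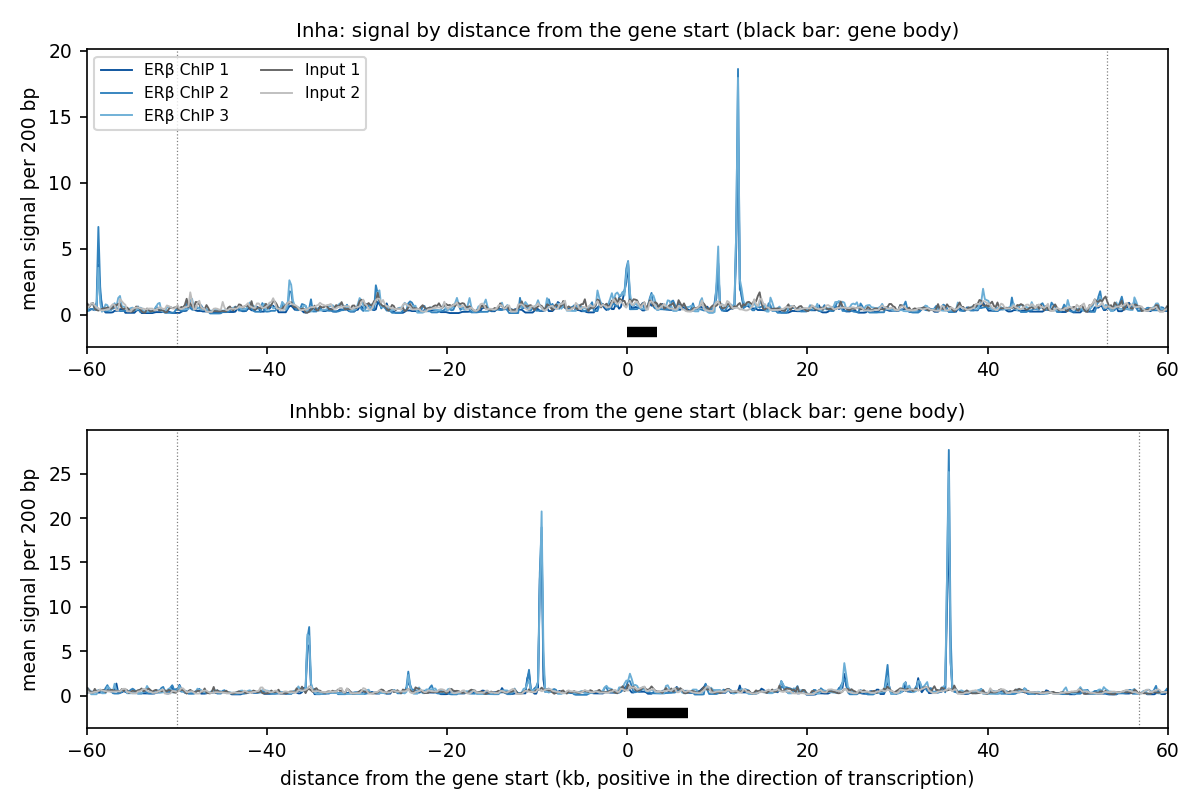
Mean signal per 200 bp (y axis, normalised units of the deposited tracks) by distance from the gene start in kb (x axis) for Inha and Inhbb, with 3 ERβ ChIP libraries in blue and 2 inputs in grey; black bars are gene bodies and dotted lines the locus borders. The highest peaks lay 12.2 kb downstream of Inha and 35.6 kb downstream and 9.58 kb upstream of Inhbb, and the inputs stayed near the baseline at all of them.

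Inhba, the gene for the βA-subunit of inhibin A and activin A, had no site. Its strongest window, 17.9 kb upstream and inside intron 1 of the transcribed pseudogene B230303A05Rik, had signal of 1.15, 1.65 and 2.29 in the ChIP libraries and 0.436 and 0.480 in the inputs. The folds were 2.51, 3.60 and 5.01, and only ChIP replicate 3 passed 4-fold. The numbers of sites at the β-subunit genes were 4 at Inhbb and 0 at Inhba, but Inhbb had 1 with 10 kb on each side, and Inhba had 1 site at a threshold of 3-fold, with Input 1 alone as the denominator or with 100 kb on each side of the gene.

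Of the binding protein genes, Fst had 1 site and Fstl3 had none, but Fstl3 had 1 at a threshold of 3-fold and 2 with 100 kb on each side, and Fst had 0 at 8-fold. The Fst site (gene at chr13:114452290-114458951, minus strand) was 2.04 kb downstream of the gene start, in intron 1 of the full-length transcripts and 674 bp upstream of the start of a shorter annotated transcript. Signal was 3.39, 4.80 and 3.80 in the ChIP libraries and 0.467 and 0.589 in the inputs. The folds, by which the window was chosen, were 6.43, 9.10 and 7.20 (mean 7.58 ± 1.38, SD, n = 3). No ERE with at most 2 mismatches was in this window, which held a FOXO match and a single GGTCA copy. At Fstl3 the strongest window was 2.55 kb upstream of the start and reached 4.01, 1.83 and 3.68-fold, so 1 of 3 ChIP libraries passed 4-fold.

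Of the receptor genes, only Acvr1b had sites, and none of these was inside Acvr1b. The gene, which encodes the type I receptor of activin, lay at chr15:101174067-101213684 (plus strand), and its 3 sites were 55.0, 67.0 and 74.1 kb downstream of its start, past its end. The strongest had signal of 6.94, 7.12 and 10.7 in the ChIP libraries against 0.720 and 0.750 in the inputs, folds of 9.44, 9.70 and 14.6, and a mean of 11.2 ± 2.88 (SD, n = 3). It lay 6.07 kb upstream of the start of Nr4a1, an orphan nuclear receptor gene that is induced early after hormonal signals. The middle site was 13.2 kb upstream of Nr4a1, and the first overlapped a coding exon of Grasp. Those 2 had folds of 3.15, 5.16 and 4.38 and of 3.07, 4.60 and 4.78, and ChIP replicate 1 was under 4-fold at both. When ChIP replicate 2 was left out, or replicate 3, Acvr1b had 1 site, and with 10 kb on each side of the gene it had 0. Acvr2a and Acvr2b, the type II receptor genes, had no site, but Acvr2b had 1 site with either input alone as the denominator and 2 at a threshold of 3-fold. The strongest window of Acvr2a reached 1.69, 2.55 and 3.27-fold, and that of Acvr2b reached 3.60, 5.26 and 2.66-fold.

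Ordered by mean fold, the sites fell into a group of 3 and a lower series. The 3 highest sites, 2 at Inhbb and 1 at Inha, ranged from 23.3 to 39.5-fold over the libraries. Each overlapped the next in the order, so the order of neighbours is not resolved beyond the spread. Within each library the Inhbb site 35.6 kb downstream was above the Inha site, at 29.5 against 23.3, 39.5 against 31.1 and 39.4 against 29.8. Against the Inhbb site 9.58 kb upstream, the order of both changed between libraries. The lowest value among the 3 highest sites, 23.3, was above the highest value of the site that followed, 14.6 at Acvr1b. From there on, every site's range overlapped that of its next neighbour, down to the 2 weaker sites of Acvr1b. ChIP replicate 1 had the lowest fold of the 3 libraries at 8 of the 11 sites and at 61.9% of all 4869 sites. ChIP replicate 1 and Input 1 carried track names of another form than the other libraries, and the part of this in the lower folds was not tested.

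**Figure D2:**
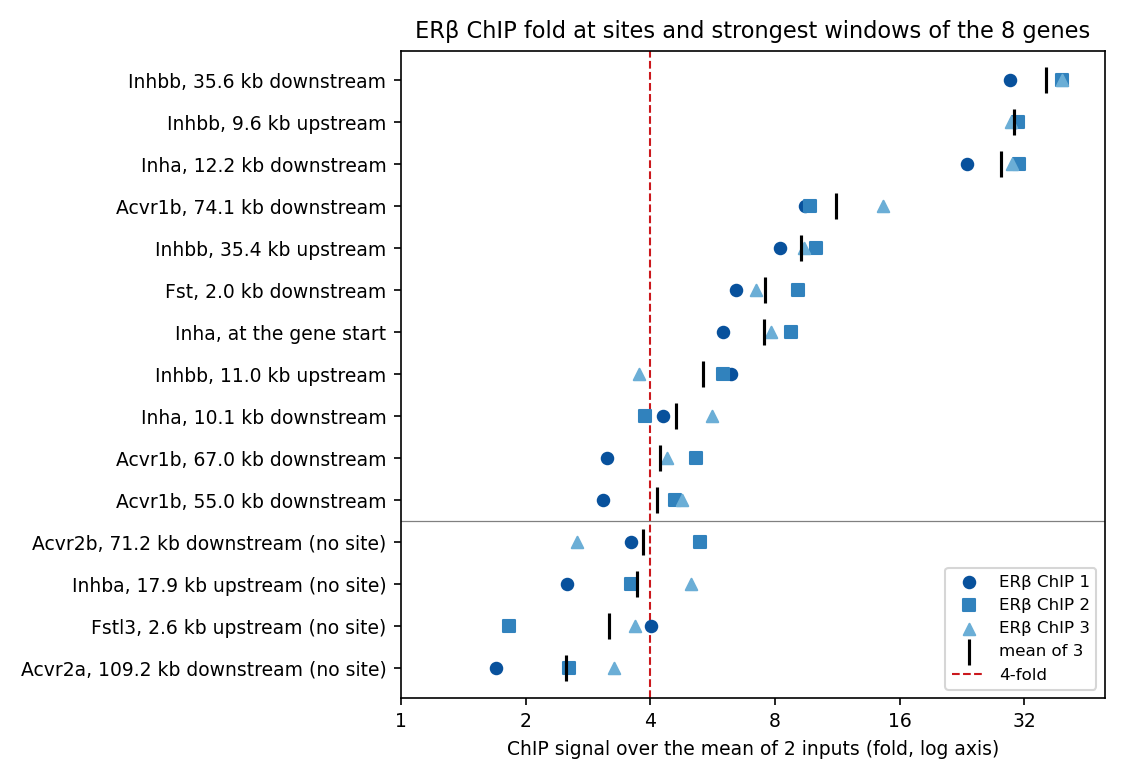
ChIP signal over the mean of 2 inputs (x axis, fold on a log axis) for the 11 sites (above the grey line) and for the strongest window of the 4 genes without a site (below it), with 1 symbol per ChIP library and a black tick for the mean. The 2 highest Inhbb sites and the highest Inha site lie between 23.3 and 39.5-fold, and the windows below the line have at most 1 library to the right of 4-fold (dashed).

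Around the site centres, signal fell to under 50% of its central value within 125 to 225 bp on each side at all 11 sites, when read in steps of 50 bp. The mean of the inputs within 1.5 kb of the centres stayed at or below 1.48. The peaks of the 3 ChIP libraries coincided at the 7 sites plotted, and the inputs had no peak of similar height there.

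**Figure D3:**
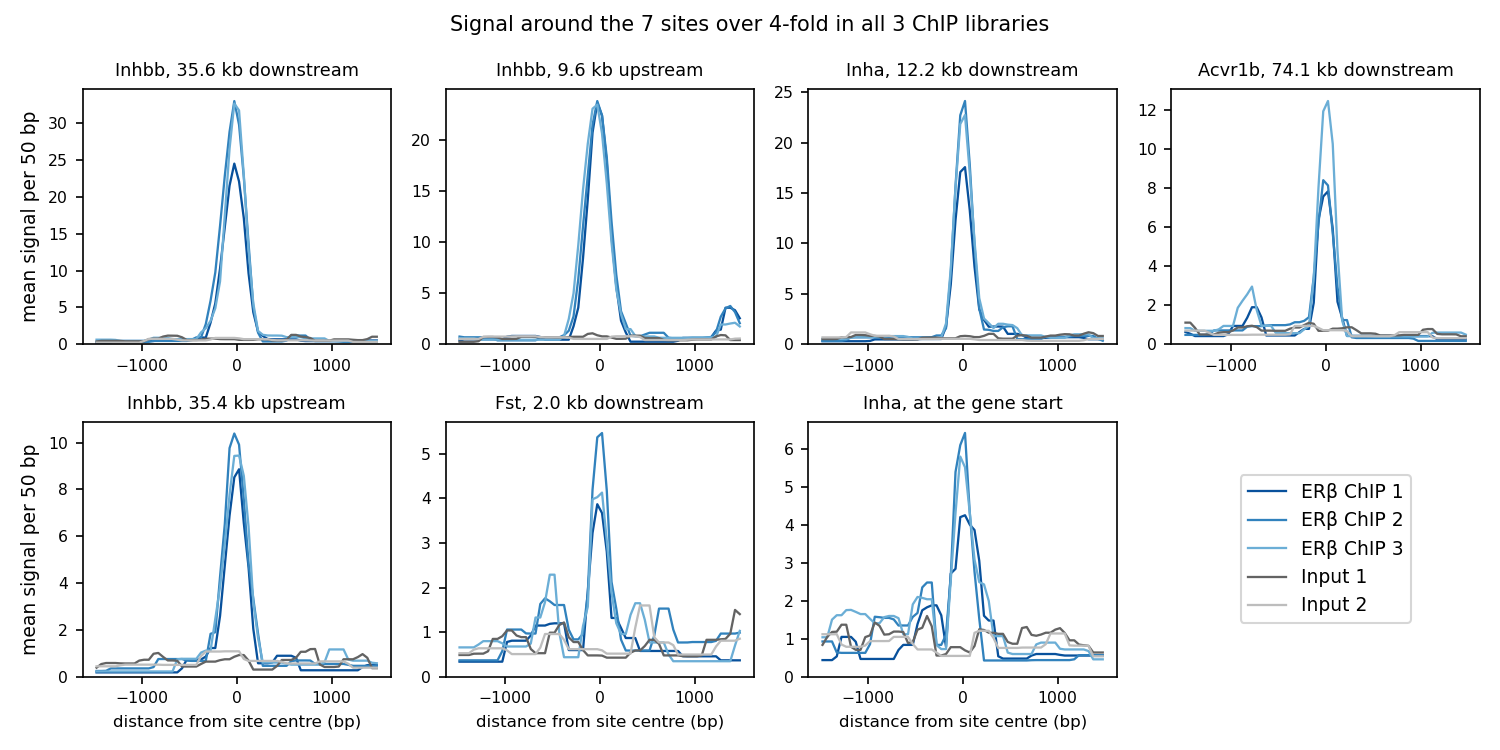
Mean signal per 50 bp (y axis) by distance from the site centre in bp (x axis) at the 7 sites over 4-fold in all 3 ChIP libraries, which are in blue with the 2 inputs in grey; the y axes differ between panels. The central 200 bp averaged 26.1 at the Inhbb site 35.6 kb downstream, 21.1 at the site 9.58 kb upstream and 18.1 at the Inha site 12.2 kb downstream.

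The sites were chosen by these folds, so the folds describe them and were not tested. The folds were also read in a library left out of the choice, over the same inputs. When sites were called in 2 ChIP libraries and read in the third, the fold in the library left aside had a median of 8.22 over 9 sites for ChIP replicate 1, 9.47 over 8 sites for replicate 2 and 11.9 over 8 sites for replicate 3. In each case 7 of these sites were again over 4-fold, and the lowest values were 3.07, 3.83 and 3.76. As a background, the inputs were divided by each other, so the denominator was a single input and not the mean of both. Input 1 over Input 2 gave 0 maxima over 4-fold in the 8 loci, and Input 2 over Input 1 gave 1, at 4.13-fold. Single ChIP libraries over the mean input gave 10, 13 and 12. Nearest to the threshold, the second-highest fold was 4.29 at the Inha site 10.1 kb downstream and 4.38 at the Acvr1b site 67.0 kb downstream, and just below it were 3.68 at Fstl3, 3.63 at Acvr2b, 3.62 at Inhba and 3.43 at a window of Inhbb 24.1 kb downstream.

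A test across the whole genome called 6 windows of 1 kb in the 8 loci higher in ChIP than in input. Of 984 windows tested in these loci, 4 of those called were at Inhbb, 1 at Inha and 1 at Acvr1b, against a background of 0.0957% of 2430674 windows (limma on log2(signal + 0.5), Benjamini-Hochberg adjusted p under 0.05). The window with the highest Inhbb site had signal of 7.11, 9.82 and 8.91 in the ChIP libraries and 0.668 and 0.679 in the inputs, which gave a log2 fold change of 2.95 ± 0.26 (SE) with 9.4e-09 as the adjusted p of limma. The window at the site 9.58 kb upstream differed by a log2 fold change of 2.68 ± 0.25 (SE) with 2.12e-08 as the adjusted p of limma, and that at the Inha site 12.2 kb downstream by 2.45 ± 0.24 (SE) with 3.7e-08 as the adjusted p of limma. All but 1 of the 6 windows held a site. The exception, 23.8 kb downstream of the Inhbb start, had signal of 1.15, 1.22 and 1.58 against 0.461 and 0.563 and rose by a log2 fold change of 0.84 ± 0.18 (SE) with 0.0301 as the adjusted p of limma.

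The window called at Acvr1b, beside Nr4a1, rose by a log2 fold change of 1.30 ± 0.20 (SE) with 3.12e-04 as the adjusted p of limma. At Fst the highest window missed the threshold with a log2 fold change of 0.85 and a limma adjusted p of 0.060. At Inhba, Fstl3, Acvr2a and Acvr2b the highest log2 fold changes were 0.36, 0.27, 0.38 and 0.36. Across them the smallest limma adjusted p for a higher window was 0.944. At an unadjusted limma p under 0.05 they had 2, 0, 3 and 1 higher windows of 111, 104, 187 and 131 tested. The genome had 46256 of 2430674. No window of the 8 loci was called lower in ChIP by limma, against a background of 0.00267% of all windows. At an unadjusted limma p under 0.05, 83 of the 984 windows in the loci were lower, against 80925 of 2430674 in the genome.

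None of the 8 promoters, from 1 kb upstream to 100 bp downstream of the start, was called higher by limma. The background was 0.0712% of 21064 promoters. At an unadjusted limma p under 0.05, 1 of the 8 was higher, against 289 of all 21064. That one was Inha, where signal was 1.59, 2.30 and 2.17 in the ChIP libraries and 1.01 and 0.780 in the inputs without overlap. Its log2 fold change was 0.84 ± 0.34 (SE), with 0.305 as the adjusted p of limma, and 0.432% of promoters were at least as high. The median promoter stood at a log2 fold change of -0.13, and relative to it Inha was at 0.98. Over all promoters 15 were called higher and 5 lower, against 151 higher and 1 lower when the libraries were centred on their medians. The Inha promoter passed the threshold with that centring (limma adjusted p = 0.00444) and when ChIP replicate 3 was left out (limma adjusted p = 0.00506). Without ChIP replicate 3, 199 of 21058 promoters were called higher and 2893 lower.

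The ChIP values of Acvr2a, 0.839, 1.21 and 1.53, also lay above its inputs, 0.804 and 0.812, and 1.46% of promoters were at least as high. Relative to the median promoter, log2 fold changes were 0.48 at Acvr2a, 0.36 at Inhbb, 0.08 at Fst, -0.03 at Inhba, -0.08 at Acvr1b, -0.08 at Acvr2b and -0.15 at Fstl3, and their limma adjusted p values before centring were 0.469 or more. At Acvr1b a single library decided the value. Signal there was 0.388, 0.436 and 1.42 in ChIP replicates 1, 2 and 3 against 0.861 and 0.844 in the inputs. Without ChIP replicate 3 the promoter was lower than input, with a log2 fold change of -0.57 ± 0.16 (SE) with 0.0110 as the adjusted p of limma. In that setting 2893 of 21058 promoters were called lower, so the call was not particular to Acvr1b.

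**Figure D4:**
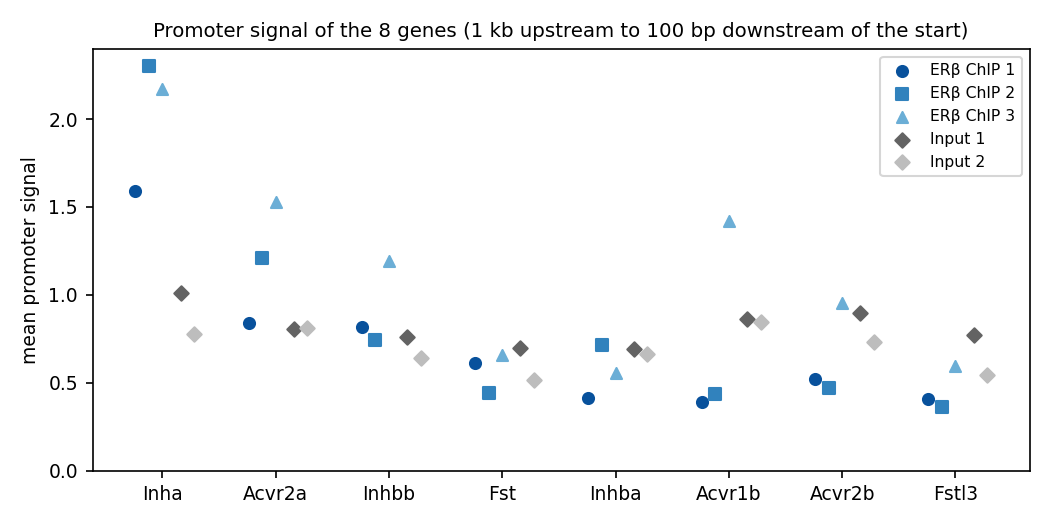
Mean signal of each promoter (y axis, normalised units) for the 8 genes (x axis, ordered by log2 fold change), with 1 symbol per library, the 3 ChIP libraries in blue and the 2 inputs in grey. The ChIP values of Inha, 1.59 to 2.30, lie above its inputs, and ChIP replicate 3 stands apart from the others at Acvr1b.

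EREs were far more frequent in the loci than sites. The 8 loci held 36 EREs with at most 1 mismatch, and 2 of them lay inside a site, against 2.32% of 72460 such EREs in the genome. Those 2 were in the highest Inha site and in the Inhbb site 9.58 kb upstream. Both differed from the consensus by the same substitution, C13T, counted from 1 at the 5′ end of the element on the plus strand. The signal in 200 bp around these 2 was 23.2, 30.9 and 29.7-fold over input at Inha and 28.4, 29.1 and 26.8-fold at Inhbb. The same substitution alone was present in an ERE 21.6 kb upstream of Acvr2b, outside any site, where the folds were 0.570, 0.835 and 0.892. The consensus is its own reverse complement, so C13T on 1 strand is G1A on the other. An ERE with G1A alone lay 120.1 kb downstream of Acvr2a, with folds of 1.71, 0.463 and 0.840. Another lay 42.0 kb upstream of Inhba, with folds of 0.896, 0.788 and 1.005. Both were outside any site. The highest site of Inhbb, 35.6 kb downstream, held an ERE with 2 mismatches, T3G and C4T, in the first arm and none in the second. The only ERE without mismatch in the 8 loci lay 37.8 kb upstream of Acvr2b and showed 0.809, 0.842 and 0.543-fold, under 1 in every ChIP library. The elements are set out for comparison, with bases that match the consensus in capitals and the spacer and mismatches in lower case.
Inha, chr1:75519309-75519321: GGTCActgTGACt
Inhbb, chr1:119431870-119431882: GGTCAcgaTGACt
Inhbb, chr1:119386623-119386635: GGgtAggcTGACC
Acvr2b, chr9:119364303-119364315: GGTCAgttTGACC

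The 4 genes without a site had, by definition, no window over 4-fold in 2 ChIP libraries, which limits the folds there. Among their 22 EREs with at most 1 mismatch, the highest mean fold was 3.84 ± 1.32 (SD, n = 3). It was at the strongest window of Acvr2b 71.2 kb downstream, which passed 4-fold in ChIP replicate 2 alone. At Fst the only such ERE, 21.1 kb downstream of the start, had a mean fold of 0.752, and it lay away from the site in intron 1. The 3 such EREs at Acvr1b had mean folds of 0.728, 0.532 and 1.63 and were not at the sites beside Grasp and Nr4a1.

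**Figure D5:**
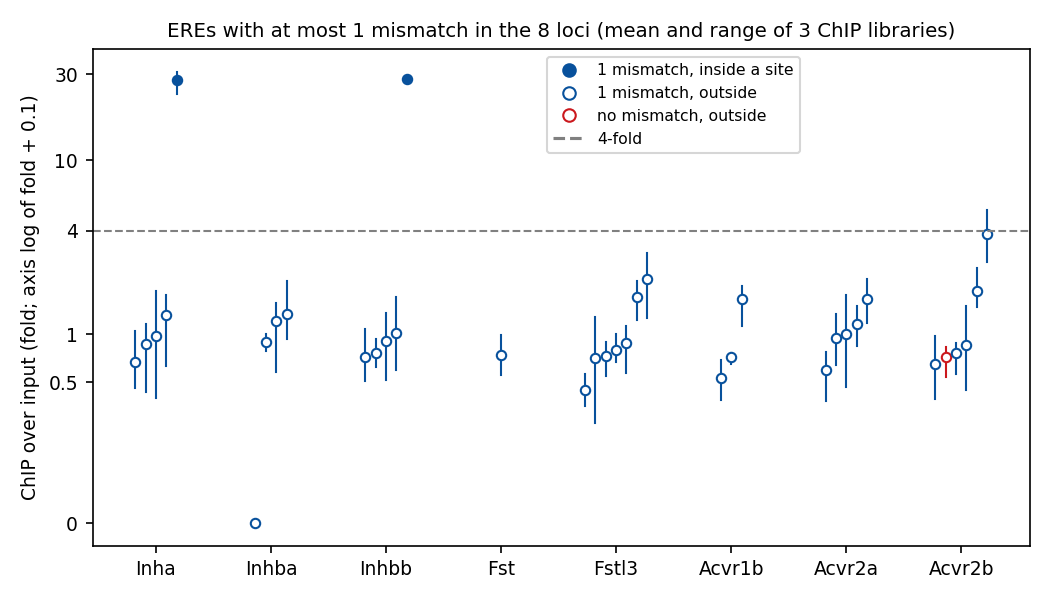
Fold of ChIP over input in 200 bp (y axis, log of fold + 0.1) at each of the 36 EREs with at most 1 mismatch in the loci of the 8 genes (x axis); circles are means of 3 ChIP libraries, lines the range, filled circles EREs inside a site and the red circle the ERE without mismatch. The 2 filled circles, at Inha and Inhbb, lie near 28-fold, and all other means are below the dashed line at 4-fold. This split follows largely from how sites were defined.

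Over the 11 sites, 6 held an ERE with at most 2 mismatches, which is 54.5% with an exact 95% binomial interval from 23.4 to 83.3%. The share was 67.9% of all 4869 sites and 6.68% of all 200-bp windows laid end to end. The 6 sites included the 3 highest, and the 5 without were the Inha start, the Inha site 10.1 kb downstream, the Inhbb site 35.4 kb upstream, the Fst site and the first Acvr1b site. The Inhbb site 35.4 kb upstream instead held GGTCA copied in tandem with 1 base between, as printed in capitals, a feature chosen after its sequence was seen. A FOXO match was present in 3 of the 11 sites (27.3%, exact 95% interval from 6.02 to 61.0%), at Fst and at the first and last Acvr1b sites, and in 4.77% of all sites. NR5A and GATA matches were each in 2 of the 11, against 11.6% and 19.9% of all sites, and an AP-1 match (TGANTCA, either strand) in 0 of 11, against 8.96%. With 11 sites these intervals are wide, they cover counting error only, and a match is a description of the sequence and not of a bound factor.

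Among 13 other genes of the pathway, 7 had at least 1 site, with 13 distinct sites, against the background of 27.4% of protein-coding genes. Tgfbr3, which encodes the inhibin co-receptor betaglycan, had 5, and the strongest had folds of 7.86, 9.45 and 6.23. Smad3, a mediator of activin signals, had 4, and the strongest, in intron 5 of the gene, had folds of 10.6, 12.2 and 10.4. The neighbouring β-subunit genes Inhbc and Inhbe shared 1 site, in intron 1 of R3hdm2, with folds of 11.9, 14.0 and 20.8. Acvr1, Smad7 and Furin had 1 each, with mean folds of 4.35, 4.66 and 4.49, and that in the Furin locus was at a promoter of Unc45a and reached 1.32-fold in ChIP replicate 1. Acvr1c, Bambi, Smad2, Smad4, Mstn and Gdf11 had none. Locus length differed between these genes because the gene body was included, and a longer locus has more room for sites. The highest single value among these 13 sites, 20.8-fold, was below 23.3, the lowest of the 3 highest sites of Inha and Inhbb.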

How the data were processed

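ERβ ChIP-seq tracks of 3 ChIP libraries and 2 inputs from mouse ovary were analysed, and groups were taken from the sample titles. The authors aligned reads with STAR to mm10 and worked with HOMER, as the submitters' notes and the study's methods say, and deposited 1 track per library. Each value is coverage signal, scaled by the authors so that libraries had nearly equal totals of 928 to 948 M signal times length. Read counts cannot be had from averaged coverage, so the tracks do not give the depth of the libraries and no counting error could be given. The study reports a range of aligned reads for its ChIP samples, which was not used here. The track of Input 1 was divided into 8320529 segments, against 4396918 in Input 2 and 4589236 to 4600707 in the ChIP libraries. Whether this reflects depth, and its part in the results, was not tested. The treatment of duplicate reads is not given in the sources used here. The study compared tag counts in ChIP and input with HOMER, which these tracks do not hold.

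Mean signal was computed in 200-bp windows at steps of 10 bp on the autosomes and chromosome X. The fold divided the ChIP signal of a window by the mean of both inputs there, and input values below the genome mean of 0.368 were raised to it. Windows over 4-fold in 2 or more ChIP libraries were merged when within 200 bp of each other. Windows of 1 kb and promoters of all protein-coding genes with a mean signal of at least 0.1 were tested with limma 3.58.1 in R 4.3.3 (two-sided, trend, log2(signal + 0.5), Benjamini-Hochberg adjustment over all windows or promoters). These fold changes understate changes where signal is low. Genes came from GENCODE vM21 and sequence from GRCm38.p6. The site caller, the motif search and the limma script were tested on simulated data. The labels do not say that libraries with the same number are paired. The deviations of same-numbered ChIP and input libraries correlated at 0.0362 and -0.0111, and no pairing was used. With 2 inputs these values cannot exclude pairing. The p-values and SEs of limma rest on the spread between these libraries, drawn toward a trend fitted over all windows or promoters. They do not measure the spread of a single window or promoter alone.

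All 8 genes are reported, and the 13 other pathway genes are given by counts, with values for those with a site. The genes, lists and tests were chosen with earlier results of these data known. Alternatives varied the fold, the number of libraries, the window, the flank, the input, the floor, the pseudocount, the signal filter, the scaling and the libraries included.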

Additional observations from a re-analysis of the deposited data

How the results depend on the processing

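Sites in the 8 loci numbered 11 and lay at 4 genes. A threshold of 3-fold gave 18 sites at 7 genes, 8-fold gave 5 sites, a requirement of all 3 ChIP libraries 7 and a flank of 10 kb 5. The 27.4% of protein-coding loci with a site was counted at 4-fold and 50 kb only. Counts for the 8 genes at other settings, here and above, therefore have no background. The other site settings, including leaving out each ChIP library (8 to 9 sites, 4 genes each time), stayed within 1.5 times. Of the 1-kb windows, 6 were higher in ChIP and 5 to 7 when 1 library was left out, but 2 without the filter on low signal. Without that filter 521 of 2633767 windows of the genome were called higher, against 2326 of 2430674 with it. The cause of this drop was not tested. The labels do not say whether the replicate numbers pair the libraries, and the main model used no pairing. With the replicate block 8 windows were higher and 5 lower, against 0 lower otherwise, and none of the 8 promoters was called higher. In the genome, the block gave 3428 higher and 3209 lower of 2430674 windows, against 2326 and 65 without it. Of all 21064 promoters, 95 were called higher with the block and 1083 lower. Promoters called higher numbered 0, but 1, Inha, with median-centred libraries, and from 0 to 1 when 1 library was left out, the 1 being Inha without ChIP replicate 3. Over all promoters, 151 were called higher with that centring and 199 without ChIP replicate 3. The percent of sites with an ERE fell from 54.5% to 18.2% with at most 1 mismatch and to 0% with none, since fewer sequences then match. Windows of 400 bp lowered the mean fold of the highest site to 26.5 at Inhbb, 19.3 at Inha, 6.42 at Acvr1b and 5.17 at Fst, since they average over wider sequence. With Input 2 alone the Inha value was 33.6, and the cause was not tested, nor was that of the changes with the block, the centring or the library left out. The tracks carry no depth, so weak windows such as those at Inhba, Fstl3 and Acvr2b cannot be told apart from low-level binding.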
